A study of Mus musculus with 8 samples.

Results

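The 35 genes described here are cadherins and non-clustered protocadherins. They are every gene in the annotation of the count files whose symbol is Cdh followed only by digits, or Pcdh followed by digits. They were 35 of 33696 annotated genes. Pcdh11x was kept, and the clustered Pcdha, Pcdhb and Pcdhg genes were left out. By subfamily they comprised 5 type I classical cadherins (Cdh1, Cdh2, Cdh3, Cdh4 and Cdh15), 13 type II classical cadherins (Cdh5 to Cdh12, Cdh18, Cdh19, Cdh20, Cdh22 and Cdh24), 4 δ1-protocadherins (Pcdh1, Pcdh7, Pcdh9 and Pcdh11x), 5 δ2-protocadherins (Pcdh8, Pcdh10, Pcdh17, Pcdh18 and Pcdh19) and 3 other protocadherins (Pcdh12, Pcdh15 and Pcdh20). The remaining 5 (Cdh13, Cdh16, Cdh17, Cdh23 and Cdh26) carry a Cdh symbol but are not classical cadherins.

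Cadherins are calcium-dependent adhesion proteins of the cell surface. Classical cadherins bind the same or a closely related cadherin on the neighbouring cell and are tied to actin inside the cell by β-catenin, p120-catenin and α-catenin, while δ-protocadherins adhere more weakly and several of them recruit the WAVE complex, which builds branched actin. In the retina, combinations of cadherins mark cell types and guide the lamination of their processes, with type II cadherins known from bipolar cells and from the circuit for motion direction, and Cdh23 and Pcdh15 together form the tip link of hair cells.

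Single-nucleus RNA sequencing was performed on the retina of 2 groups of female mice at P120. Controls were Piezo2f/f (4 libraries, replicates 1 to 4) and the conditional knockout (cKO) was Olig2-cre;Piezo2f/f (4 libraries, replicates 10 to 13). Both groups carried the floxed Piezo2 alleles, a mechanically gated ion channel gene; the cKO mice in addition carried Olig2-cre, a knock-in that leaves them heterozygous for Olig2, and the controls did not. Each library pooled 6 retinae, so the spread between libraries is one between pools. Nuclei were sorted as NeuN+/RBPMS+ to enrich retinal ganglion cells (RGCs), the output neurons of the eye. The comparisons ask where in the retina each member was expressed, which members differed between RGC types, and whether the genotype changed them.

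The count files gave 34935 nuclei after filtering, 15880 from control and 19055 from cKO libraries, between 2211 and 5315 a library. RGCs made up 46.5% to 68.1% of the nuclei of a library with a median of 4653 to 10850 unique molecular identifiers (UMIs, counted RNA molecules) per nucleus. Nuclei were assigned by their UMIs of marker genes, none of them a member: 20220 RGCs, 2319 amacrine, 1604 rod, 1576 bipolar, 1432 Müller glia, 431 cone and 189 horizontal nuclei, with 4637 nuclei meeting no gate and 2527 several. In control replicate 1, cKO replicate 10 and cKO replicate 13 a larger share met no gate, 18.98% to 23.05% against 4.66% to 10.3%. Horizontal cells exceeded 10 nuclei in 3 libraries, control 1, cKO 10 and cKO 11. Piezo2 was at 10.4 to 15.0 CPM (UMIs of the gene scaled to 1000000 UMIs of the library) in control and 6.96 to 12.1 CPM in cKO libraries, UMIs from the 3′ end of a transcript, so they do not check a deletion of exons elsewhere. A library held 0 or 1 UMI of Olig2, the gene whose promoter drives the Cre. Barcodes shared between libraries were at most 0.242% of the smaller library.

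Each gate was checked against its markers. The Müller gate led with Flt1 at 1914 CPM, a gene listed as an endothelial marker, and its summed endothelial list was 2235 to 2461 CPM in control and 2299 to 2588 CPM in cKO libraries. Pooled over libraries, Kdr of that list was also raised, at 478 CPM against 2.07 to 14.9 CPM in the other classes, while Tek was at 7.58 CPM, Pecam1 at 2.35 CPM, Emcn and Egfl7 at 1.57 CPM each and Cldn5 at 0.261 CPM. Of the pericyte list Pdgfrb was at 146.9 CPM, Rgs5 and Notch3 at 5.75 CPM each, Abcc9 at 1.05 CPM and Kcnj8 at 0.261 CPM, and the list summed to 126 to 185 CPM in control and 142 to 241 CPM in cKO libraries. Of the astrocyte list Aldoc was at 69.5 CPM, Slc14a1 at 50.4 CPM, Pax2 at 23.8 CPM, Gfap at 14.4 CPM and S100b at 12.3 CPM, with sums of 115 to 224 CPM in control and 104 to 152 CPM in cKO libraries. What part these markers have in the Müller values below was not tested. In the same gate Cdh5, the vascular endothelial cadherin, had 0 UMIs, which allows up to 0.784 CPM. Levels are given below as CPM, scaled within the class and library, from lowest to highest library with the median, and are compared within a gene over classes, not between genes.

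Across the 7 classes, 26 of the 35 members had enough UMIs to be tested with 12756 genes in all, each class against the mean of the other 6. Called here means an adjusted p below 0.05 together with a log2 difference beyond 0.5. Neurons of the inner retina held most of the family: in RGCs 19 of 26 members were called higher and 1 lower, where 25% and 14.9% of all genes were, and in amacrine cells 18 were higher and 1 lower, where 23.1% and 13.1% of all genes were. Bipolar cells had 12 members higher and 3 lower (19.7% and 13% of all genes), and Müller glia 9 higher and 11 lower (24.4% and 21.1% of all genes). Photoreceptors had the opposite balance of counts, with 3 higher and 13 lower in cones (16.5% and 21.9% of all genes) and 2 higher and 10 lower in rods (22.1% and 16.8% of all genes). Most of the lower calls in cones had to differ because of the filter on low counts, as given below. Horizontal cells had 4 higher and 10 lower (12% and 10.3% of all genes). Of the 2319 amacrine nuclei, 1512 met the GABAergic gate and 159 the glycinergic one, so the amacrine counts describe mainly GABAergic cells.

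By median level the top class of these 26 was RGC for 8, amacrine for 5, Müller glia for 5, horizontal for 3, bipolar for 2, cone for 2 and rod for 1. Because the log2 differences are taken against the mean of the logged levels of 6 classes, a class near 0 widens those of the others. The other 9, Cdh1, Cdh3, Cdh5, Cdh15, Cdh17, Cdh26, Pcdh12, Pcdh18 and Pcdh20, stayed below the filter and have levels only. A member can also pass the filter on low counts only through the side on which it was high, and such a member had to differ. That was so for 5 of the 67 higher calls in classes (Cdh9 in bipolar cells, Cdh16 in rods, Cdh19 and Cdh23 in Müller glia and Cdh24 in amacrine cells) and for 24 of the 49 lower ones. By class these lower ones were 8 of 13 in cones, 7 of 10 in horizontal cells, 6 of 11 in Müller glia, 2 of 3 in bipolar cells and 1 of 10 in rods. Those calls are given as a log2 difference without an error or p, here and in the gates below, and counts that hold them describe the members and test nothing. Fitted without the filter, all 29 were called in the same direction, but on the same counts, so that refit adds no support for them.

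**Figure D1:**
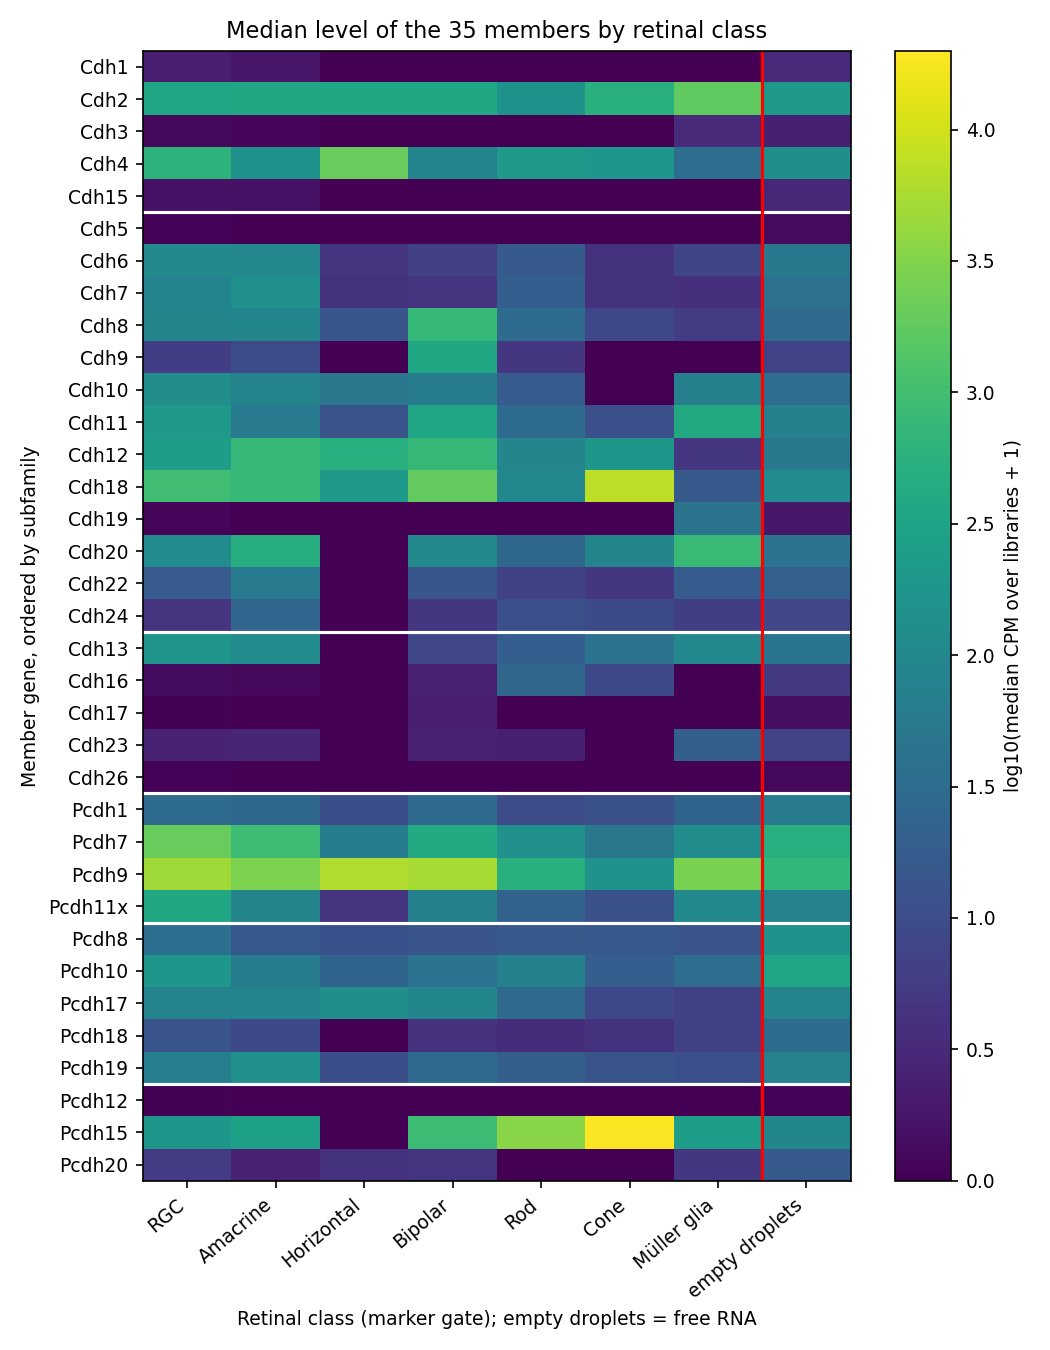
Median CPM over libraries of the 35 members (rows, by subfamily) in the 7 retinal classes and in empty droplets (columns); colour is log10(median CPM + 1). Pcdh15 and Cdh18 are brightest in cones, Cdh4 and Pcdh9 are bright in horizontal cells, and Cdh8 and Cdh9 stand out in bipolar cells.

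Among the type I cadherins, Cdh2 was highest in Müller glia and Cdh4 in horizontal cells. Cdh2, N-cadherin, the main classical cadherin of neural tissue, was at 1666 to 1890.0 CPM (median 1754) in Müller glia, above every other class in all 8 libraries, with a log2 difference of 2.37 ± 0.05 (adjusted p = 2.9e-50). Its level was 313 to 352 CPM in RGCs, 350.1 to 405 CPM in amacrine and 291 to 409 CPM in bipolar cells, of which the bipolar range overlapped both others. Cones held 392 to 698 CPM (median 526) and rods 106 to 264 CPM (median 161), and the rods were called lower, at -1.73 on the log2 scale. Cdh4, R-cadherin, named for the retina, was highest in horizontal cells at 1741 to 2255 CPM (median 1964) in 3 libraries (log2 difference 3.99 ± 0.11, adjusted p = 5.0e-43), followed by RGCs at 518 to 692 CPM (median 608). In Müller glia it was lowest at 21.9 to 77.3 CPM (median 34.7), called at -2.83. Cdh1, E-cadherin of epithelia, stayed at 0.866 to 2.21 CPM (median 1.31) in RGCs, against 1.26 to 7.66 CPM (median 2.39) in empty droplets. Cdh3, P-cadherin of the pigment epithelium, and Cdh15, M-cadherin of muscle, had medians of at most 2.24 CPM in any class.

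Among the type II cadherins Cdh9 was highest in bipolar cells, at 308 to 411 CPM (median 372) against 3.198 to 5.97 CPM (median 5.201) in RGCs and 6.198 to 15.7 CPM (median 8.83) in amacrine cells, so the bipolar range lay above the next class in all 8 libraries (log2 difference 7.89). Within bipolar cells the median of Cdh9 was 1068 CPM in ON cone, 65.2 CPM in OFF cone and 6.51 CPM in rod bipolar nuclei. Cdh9 was also called higher in amacrine cells (log2 difference 1.68). Cones held 0 of its UMIs in 431 nuclei, at least 114-fold lower than bipolar cells when 3 UMIs over the group stand for the floor. Cdh8, which with Cdh9 is known from bipolar types that end in different sublaminae, was at 464 to 1230.3 CPM (median 767) in bipolar cells (log2 difference 5.09 ± 0.11, adjusted p = 4.2e-51). In RGCs it was 75.4 to 104 CPM (median 89.2) and in amacrine cells 67.7 to 111 CPM (median 94.3), ranges that overlap, and in Müller glia it was 0 to 9.27 CPM (median 4.82, log2 difference -3.57).

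Cdh11, OB-cadherin, first known from bone, was shared by glia, bipolar cells and RGCs. Its level was 365 to 459 CPM (median 402) in Müller glia, 262 to 419 CPM (median 330.1) in bipolar cells and 195 to 221 CPM (median 204) in RGCs, with log2 differences of 3.00 ± 0.10, 2.87 ± 0.10 and 2.04 ± 0.10. The glial and bipolar ranges overlap. In horizontal cells it was 0 to 16.4 CPM (median 11.5), called at -3.21. Cdh12, a brain cadherin, was instead high in amacrine cells (687 to 915 CPM, median 744), bipolar cells (702 to 917 CPM, median 729.5) and horizontal cells (447 to 581 CPM, median 488), the first and second overlapping. Müller glia held 0 to 16.7 CPM (median 3.703) of it (log2 difference -5.62).

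Cdh18 was a cone gene within the family. It reached 6827 to 8543 CPM (median 7382) in cones, with a log2 difference of 4.38 ± 0.10 (adjusted p = 2.9e-50), against 1332 to 2066 CPM (median 1836) in bipolar cells, 919 to 1076 CPM (median 972) in RGCs and 14.6 to 274 CPM (median 100.1) in rods. The cone libraries lay above all others, and Müller glia had the lowest median, 5.47 to 31.1 CPM (median 15.4, log2 difference -5.52).

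Cdh6 and Cdh7 were higher in RGCs and amacrine cells, and Cdh10 was called higher in 4 classes. Cdh6 was 85.4 to 126 CPM (median 104) in RGCs and 60.01 to 119 CPM (median 95.7) in amacrine cells, overlapping, with 3.55 ± 0.14 and 3.33 ± 0.16 on the log2 scale. The median of Cdh6 was at most 15.6 CPM in every other class, and 53.1 CPM in empty droplets. Cdh7 was higher in amacrine cells (127 to 168 CPM, median 140.4, log2 difference 4.11 ± 0.14, adjusted p = 1.6e-39) than in RGCs (75.1 to 90.6 CPM, median 84.6, log2 difference 3.31 ± 0.14), without overlap. Cdh10 was highest in RGCs at 117 to 152 CPM (median 132), then in amacrine cells at 67.7 to 105 CPM (median 82.1), Müller glia at 45.5 to 104 CPM (median 74.9) and bipolar cells at 46.1 to 149 CPM (median 65.4). The last 3 ranges overlap, the bipolar one also overlaps that of RGCs, and RGCs were highest in 7 of 8 libraries. It was found in 20.2% (unthinned 40.8%) of RGCs, 11.7% (unthinned 13.5%) of Müller glia, 11.2% (unthinned 21.1%) of amacrine and 8.77% (unthinned 11.7%) of bipolar nuclei, thinned to 2000 UMIs, against 0.446% (unthinned 0.232%) of cones. Cones held 1 UMI of Cdh10, a level 128-fold below RGCs with a 95% exact counting interval of 22.9 to 5041.

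Cdh19 and Cdh20 were highest in the Müller gate. Cdh19, known from Schwann cells and neural crest derivatives, was 4.91 to 61.97 CPM (median 44.1) there and had a median of 0 to 0.177 CPM in the other classes (log2 difference 8.46). After thinning, 5.14% (unthinned 6.63%) of Müller nuclei held a UMI of Cdh19 and none of 1265 bipolar nuclei did, which allows a share of up to 0.237% there. At so low a level most nuclei hold no UMI by counting alone, so this share does not say how many nuclei express the gene. Cdh20 was found in 70.9% (unthinned 73.95%) of Müller and 1.63% (unthinned 1.59%) of horizontal nuclei. Cdh20 was 688 to 878 CPM (median 785) in Müller glia (log2 difference 3.64 ± 0.10, adjusted p = 3.0e-46) and 364 to 536 CPM (median 470.3) in amacrine cells, whereas in the 3 libraries with over 10 horizontal nuclei those cells held 2 UMIs of it, 256-fold below Müller glia with an interval of 70.7 to 2112, and over all 189 horizontal nuclei 3 held one. Cdh22 (46.8 to 70.7 CPM, median 61.3) and Cdh24 (19.8 to 34.95 CPM, median 24.2, log2 difference 3.47) were highest in amacrine cells. Cdh5 had 13 UMIs in all 20220 RGC nuclei.

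Of the cadherins outside the classical subfamilies, Cdh13, T-cadherin, which is held to the membrane by a lipid anchor and lacks the tail that binds catenins, was 144 to 182 CPM (median 170.1) in RGCs (log2 difference 3.90 ± 0.14, adjusted p = 1.9e-37). Amacrine cells held 81.1 to 134 CPM (median 119, log2 difference 3.18 ± 0.19) and Müller glia 60.2 to 118 CPM (median 101), while horizontal cells had 0 UMIs in the 3 libraries with over 10 of their nuclei, at least 37.0-fold lower than RGCs, and over all 189 nuclei 1 held a UMI. Cdh16, the kidney cadherin, was highest in rods, at low level. It was 19.2 to 41.1 CPM (median 25.4) in rods (log2 difference 5.70) and 0 to 26.6 CPM (median 7.75) in cones (log2 difference 4.08 ± 0.89, adjusted p = 1.1e-04), with a median of 0.403 CPM in RGCs and 4.32 CPM in empty droplets. The cone value of Cdh16 rests on only 10 UMIs. Cdh23, the partner of Pcdh15 in the tip link, was 6.99 to 24.1 CPM (median 19.3) in Müller glia (log2 difference 3.21) and had medians of at most 1.91 CPM elsewhere. Cdh17, the liver-intestine cadherin, and Cdh26 had medians of at most 1.33 CPM in any class.

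All 4 δ1-protocadherins were called higher in RGCs, in amacrine cells and in bipolar cells, where 25%, 23.1% and 19.7% of all genes were. All 4 were called lower in rods, where 16.8% of all genes were, although with the nuclei taken above an order-of-magnitude UMI threshold Pcdh7 was at 0.53. Pcdh7 was 1889 to 2120.1 CPM (median 1985) in RGCs (log2 difference 3.54 ± 0.09, adjusted p = 3.9e-47), above amacrine cells at 757 to 1059 CPM (median 889) and bipolar cells at 339 to 640.4 CPM (median 421) in every library. Pcdh11x, encoded on the X chromosome, was 344 to 412 CPM (median 368) in RGCs (log2 difference 3.51 ± 0.11, adjusted p = 4.0e-41), against 92.2 to 122 CPM (median 107) in Müller glia and 68.3 to 104 CPM (median 89.1) in amacrine cells. Pcdh9 was broad, at 5953 to 6230.1 CPM (median 6111) in horizontal cells, 4320.3 to 6453 CPM (median 5449) in bipolar cells and 4618 to 5491 CPM (median 4881) in RGCs, the bipolar range overlapping both others. It was 117 to 1140.3 CPM (median 529) in rods (log2 difference -2.55 ± 0.20, adjusted p = 1.5e-18) and 49.3 to 901 CPM (median 161) in cones, ranges that overlap the 619 to 1067 CPM (median 691) of empty droplets. Pcdh1 differed little between RGCs (25.2 to 39.1 CPM, median 31.2), bipolar cells (14.4 to 36.2 CPM, median 28.4) and amacrine cells (22.5 to 38.9 CPM, median 27.4), all below its 52.8 to 69.2 CPM (median 61.6) in empty droplets.

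The 4 tested δ2-protocadherins were all called higher in RGCs, where 25% of all genes were. Pooled over libraries, all 4 nonetheless had lower CPM in RGCs than in empty droplets, with Pcdh17 nearly level. Pcdh10, OL-protocadherin, was 173 to 208 CPM (median 186) there, more than in any other class in 8 of 8 libraries, and 57.7 to 78.2 CPM (median 64.5) in amacrine cells. Pcdh19, an X-linked gene known from an epilepsy that affects mainly females, was highest in amacrine cells at 123 to 169 CPM (median 146, log2 difference 2.96 ± 0.11, adjusted p = 6.3e-37), above RGCs at 60.1 to 75.7 CPM (median 68.1). Pcdh17 led in horizontal cells at 103 to 164 CPM (median 139.6), with bipolar cells at 62.3 to 142 CPM (median 94.3), amacrine cells at 64.8 to 96.01 CPM (median 86.5) and RGCs at 74.5 to 101 CPM (median 81.98), and the horizontal range overlapped the bipolar one. Pcdh8, an activity-regulated protocadherin, was 29.6 to 49.7 CPM (median 36.7) in RGCs and 144 to 209 CPM (median 155) in empty droplets. Pcdh18 and Pcdh20, below the filter, were at 8.93 to 16.5 CPM (median 12.47) and 2.92 to 8.29 CPM (median 4.74) in RGCs, and at 26.5 to 39.1 CPM (median 32.03) and 12.51 to 19.3 CPM (median 15.7) in empty droplets.

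Pcdh15, a protein of the tip link with Cdh23, was a photoreceptor gene. Cones held 16779 to 21959 CPM (median 18803), with a log2 difference of 5.70 ± 0.09 (adjusted p = 5.1e-59), and rods held 2606 to 3681 CPM (median 3422, log2 difference 2.91 ± 0.10, adjusted p = 3.0e-39). Bipolar cells followed at 849 to 1038 CPM (median 892), amacrine cells at 200.2 to 363 CPM (median 287) and RGCs at 177 to 213 CPM (median 191), and horizontal cells were lowest at 0 to 29.6 CPM (median 0, log2 difference -5.97). Without control 1 the remaining horizontal libraries had 0 UMIs of Pcdh15, and its difference in amacrine cells turned from -0.97 to 0.42 and in Müller glia from -1.26 to 0.14. Pcdh12, an endothelial protocadherin, had 11 UMIs in all RGC nuclei.

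**Figure D2:**
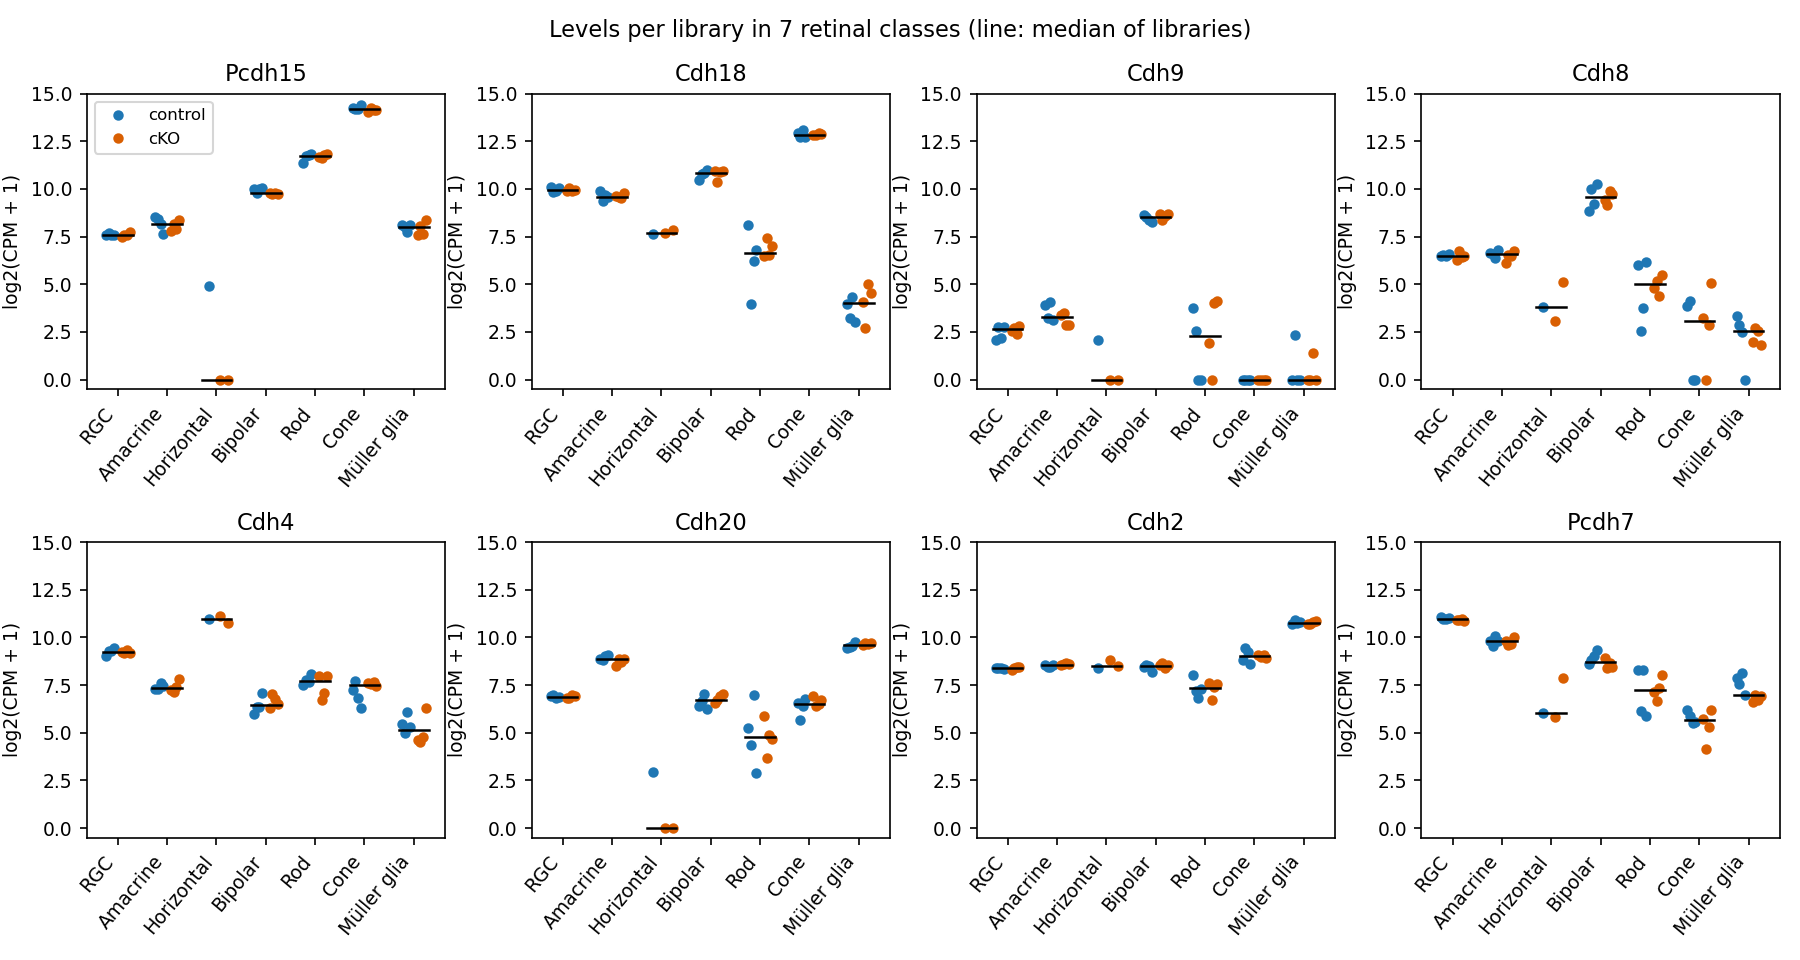
Level of 8 members in each library (points, blue control and orange cKO; log2(CPM + 1)) in the 7 classes, with a line at the median of the libraries. The cone points of Pcdh15 and Cdh18, the bipolar points of Cdh8 and Cdh9, the horizontal points of Cdh4 and the Müller points of Cdh2 and Cdh20 lie apart from the other classes, in control and cKO libraries alike.

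The 3 members called higher in a photoreceptor class with over 1 log2 unit (Pcdh15, Cdh18 and Cdh16) and the 2 that led in bipolar cells (Cdh8 and Cdh9) are shown by the 250 bases 5′ of the start of their canonical transcript, GRCm39 with GENCODE vM39 gene models, with the homeodomain core TAAT or ATTA in capitals, the letters at the centre of sites for retinal factors of the CRX and VSX families.
Pcdh15 (chr10:73657440-73657689, plus strand): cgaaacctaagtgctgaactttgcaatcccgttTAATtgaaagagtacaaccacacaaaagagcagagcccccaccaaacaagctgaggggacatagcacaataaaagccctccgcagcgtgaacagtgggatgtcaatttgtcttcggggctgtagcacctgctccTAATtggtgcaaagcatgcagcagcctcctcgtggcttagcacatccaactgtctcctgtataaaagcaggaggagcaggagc
Cdh18 (chr15:23036299-23036548, plus strand): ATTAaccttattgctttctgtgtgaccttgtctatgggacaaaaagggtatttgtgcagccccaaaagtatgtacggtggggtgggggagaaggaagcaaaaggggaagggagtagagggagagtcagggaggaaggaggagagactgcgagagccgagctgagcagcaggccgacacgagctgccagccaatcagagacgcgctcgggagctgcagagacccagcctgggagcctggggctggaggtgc
Cdh16 (chr8:105351029-105351278, minus strand): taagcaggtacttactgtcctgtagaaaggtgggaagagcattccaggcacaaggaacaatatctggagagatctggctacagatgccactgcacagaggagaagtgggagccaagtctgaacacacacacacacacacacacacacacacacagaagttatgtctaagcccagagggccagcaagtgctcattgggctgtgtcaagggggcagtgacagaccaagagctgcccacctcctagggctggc
Cdh8 (chr8:100143149-100143398, minus strand): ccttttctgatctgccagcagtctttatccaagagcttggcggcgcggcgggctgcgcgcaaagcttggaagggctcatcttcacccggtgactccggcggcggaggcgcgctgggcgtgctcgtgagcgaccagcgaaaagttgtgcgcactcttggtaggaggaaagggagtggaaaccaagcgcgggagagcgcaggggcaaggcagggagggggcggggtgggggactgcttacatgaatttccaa
Cdh9 (chr15:16728448-16728697, plus strand): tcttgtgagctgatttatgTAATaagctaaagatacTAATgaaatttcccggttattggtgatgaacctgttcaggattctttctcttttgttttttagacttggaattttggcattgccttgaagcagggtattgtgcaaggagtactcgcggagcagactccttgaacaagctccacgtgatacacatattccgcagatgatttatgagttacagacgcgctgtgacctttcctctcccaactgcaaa
On either strand the core occurred 2 times in the window of Pcdh15, 217 and 83 bases before the start, 2 times in that of Cdh9, 231 and 214 bases before it, and 1 time in that of Cdh18, and was not among the letters of the Cdh16 and Cdh8 windows. Of all 35 members 19 held it, and of 21770 promoters of the same length 55.2% did. The longer CRX-type letters TAATCC or GGATTA, which contain the core, were in none of the 5 windows, in 4 of the 35 (Cdh7, Cdh10, Cdh15 and Cdh26) and in 7% of all promoters. The starts of Pcdh15 and Cdh18 lie 723 kb and 487 kb inside their gene models, so other starts exist. GC content was 41.6% for Cdh9, 50.4% for Pcdh15, 53.2% for Cdh16, 58.0% for Cdh18 and 63.2% for Cdh8, with a median of 53.2% over all promoters.

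Droplets without a nucleus hold free RNA, and their CPM, like those of nuclei, are shares of UMIs and not amounts per droplet. A lower share in nuclei than in empty droplets therefore does not say how many nuclear UMIs were free RNA, which was not tested. With 32 members having at least 20 UMIs in empty droplets, 17 were lower in RGC nuclei than there and 15 higher. Longer genes had the higher ratios of nuclei to empty droplets. Cdh18 spans 925 kb and was 7.44-fold above empty droplets, Pcdh9 spans 877 kb and was 6.60-fold above, whereas Pcdh8 spans 4.54 kb and was at 0.234 of the empty level. Over the 32 members gene length and this ratio had a Spearman rho of 0.787 and, both logged, a Pearson r of 0.743, a description across genes of the same libraries. The 17 below the empty level were Cdh1, Cdh3, Cdh9, Cdh15, Cdh16, Cdh17, Cdh19, Cdh22, Cdh23, Cdh24, Pcdh1, Pcdh8, Pcdh10, Pcdh17, Pcdh18, Pcdh19 and Pcdh20. Of these, 6 were called higher in RGCs, Cdh22, Pcdh1, Pcdh8, Pcdh10, Pcdh17 and Pcdh19. What part of their RGC level was free RNA was not tested. By share, Pcdh1 was at 31.6 CPM in RGCs and 61.03 CPM in empty droplets, below in all 8 libraries, whereas Pcdh17 was nearly level at 0.999 of the empty value. By amount, Pcdh10 had 29800 UMIs in the 20220 RGC nuclei and 12958 UMIs in empty droplets, 45000 barcodes a library.

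Shares of nuclei with a UMI, after thinning each nucleus to 2000 UMIs and leaving out shallower ones, followed the levels. Pcdh15 was found in 100% (unthinned 100%) of cones, 84% (unthinned 91.2%) of rods, 19.5% (unthinned 32.9%) of RGCs and 2.17% (unthinned 3.17%) of horizontal cells. Cdh18 was in 99.6% (unthinned 99.3%) of cones and 2.23% (unthinned 2.72%) of Müller glia, a class with a low share, which is read as background. Cdh4 was in 95.7% (unthinned 98.9%) of horizontal cells and 4.26% (unthinned 6.42%) of Müller glia. Cdh2 was in 93.5% (unthinned 92.8%) of Müller glia, but also in 33.1% (unthinned 16.1%) of rods, the lowest share of the 7 classes, and 58.5% (unthinned 58.2%) of cones, the next highest after Müller glia, and its level in empty droplets was 207 CPM. Of 1604 rods, 175 reached 2000 UMIs.

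Genes that work with the members were counted from lists, beside the shares of all genes called in the same class. Of 13 catenins and junction partners all were tested. In RGCs 7 were called higher and 2 lower, where 25% and 14.9% of all genes were, and in Müller glia 7 and 2 (24.4% and 21.1%). Amacrine cells had 5 and 0 (23.1% and 13.1%), bipolar cells 5 and 0 (19.7% and 13%) and horizontal cells 4 and 4 (12% and 10.3%). In cones 1 was higher and 9 lower (16.5% and 21.9%) and in rods 1 and 6 (22.1% and 16.8%). Of 7 WAVE complex genes 2 were higher in RGCs and 2 in amacrine cells, near the shares of all genes just given, and 1 in horizontal cells, with none lower, while cones had 4 lower, Müller glia 2 higher and 3 lower, rods 1 of each and bipolar cells neither. Of 13 other genes of the cadherin superfamily 11 were tested, with 8 higher and 1 lower in RGCs and 7 and 0 in amacrine cells. Bipolar cells and Müller glia each had 5 higher and 4 lower, cones 2 and 4, rods 1 and 3 and horizontal cells 0 and 5. With so few genes in a list, a difference of 1 or 2 genes from the share of all genes is not read as a result.

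Of the tip-link and Usher partners 6 were tested of 9 listed. In cones 3 were higher, where 16.5% of all genes were, and in rods 2, where 22.1% were, with none lower in either. Müller glia had 3 higher and 1 lower (24.4% and 21.1% of all genes), amacrine cells 2 and 1 (23.1% and 13.1%), bipolar cells 1 and 1 (19.7% and 13%), RGCs 1 and 2 (25% and 14.9%) and horizontal cells 0 and 2 (12% and 10.3%). In cones these were Myo7a (log2 difference 3.08), Whrn (log2 difference 2.33) and Adgrv1 (log2 difference 1.23), and in rods Adgrv1 (log2 difference 2.69) and Whrn (log2 difference 2.56). Cdhr1, the photoreceptor cadherin of the outer segment base, was at 2.68 in cones and 2.60 in rods.

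RGCs comprise many types, and 7 gates of marker UMIs were laid over the 20220 RGC nuclei; 5486 nuclei met at least 1 and 140 at least 2. Each gate was compared with all other RGCs of the same libraries, 26 members tested in each. Values inside and outside are given as lowest, median and highest library. Every gate had called members in both directions. None of the 34 higher calls and 23 of the 81 lower ones passed the filter only through the side where the member was high, 11 of them in the Zic1 gate.

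In the direction-selective gate (Cartpt and Col25a1, 621 nuclei) 4 members were higher and 10 lower, where 5.18% and 8.51% of all genes were. Cdh6 was 791, 900.1 and 1173 CPM inside and 55.1, 66.3 and 82.7 CPM outside, higher in 8 of 8 libraries without overlap (log2 difference 3.77 ± 0.05, adjusted p = 3.8e-51). Thinned to 2000 UMIs, 75.5% (unthinned 92.1%) of these nuclei held it against 9.46% (unthinned 16.3%) of all RGCs and 0.8696% (unthinned 1.59%) of bipolar cells. Pcdh11x (log2 difference 2.04 ± 0.04), Pcdh8 (log2 difference 1.13 ± 0.08) and Cdh24 (log2 difference 1.09 ± 0.25) were the other 3 higher. Cdh8 was lower, 1.397, 4.803 and 13.95 CPM inside and 78.7, 93.5 and 109 CPM outside (log2 difference -4.15), and so was Pcdh15, 18.4, 32.3 and 73.9 CPM inside and 184, 199 and 221 CPM outside (log2 difference -2.58 ± 0.10, adjusted p = 6.6e-28). The gate held 5 UMIs of Cdh9, and 3 of Pcdh20, which is 11.2-fold below other RGCs with a counting interval of 3.83 to 54.6. Cdh10, the other type II cadherin known from this circuit, did not pass the threshold.

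The alpha gate (Spp1, 408 nuclei) had 6 higher and 13 lower (10.1% and 11.6% of all genes). Cdh12 (log2 difference 2.45 ± 0.05), Cdh9 (log2 difference 2.44 ± 0.22) and Pcdh9 (log2 difference 1.41 ± 0.04) led the members that were higher. Cdh20 was 2.68, 10.7 and 17.8 CPM inside and 117, 121 and 131 CPM outside (log2 difference -3.58 ± 0.13, adjusted p = 8.0e-26). Cdh6 was 3.54, 7.399 and 14.4 CPM inside and 88.5, 109.5 and 128 CPM outside (log2 difference -3.55 ± 0.12, adjusted p = 1.3e-26). The δ2-protocadherins were mostly lower, 4 of 5, with Pcdh8 at 0, 3.64 and 7.495 CPM inside and 30.6, 37.98 and 52.4 CPM outside (log2 difference -3.03). Pcdh10 was 12.4, 29.7 and 46.5 CPM inside and 178, 191 and 218 CPM outside (log2 difference -2.67 ± 0.10, adjusted p = 1.3e-25), and only Pcdh19 of that subfamily was higher (log2 difference 0.83 ± 0.07). Pcdh20 had 4 UMIs inside (log2 difference -3.09). No inside range touched the outside range for these members.

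The melanopsin gate (Opn4 and Eomes summed, 235 nuclei, in 7 libraries since control 1 had 10 nuclei) had 8 higher and 12 lower (6.78% and 8.37% of all genes). Pcdh19 (log2 difference 1.80 ± 0.09), Pcdh15 (log2 difference 1.21 ± 0.08) and Cdh7 (log2 difference 1.03 ± 0.10) led those higher. Cdh4 was 18.3, 49.9 and 96.2 CPM inside and 583, 623 and 703 CPM outside (log2 difference -3.50 ± 0.11, adjusted p = 1.1e-122). Pcdh7 was 182, 365 and 505 CPM inside and 1917, 1993 and 2135 CPM outside (log2 difference -2.64 ± 0.08, adjusted p = 2.6e-130). Both were low in every one of the 7 libraries, as was Pcdh10 at 7.301, 20.7 and 66.5 CPM inside and 175, 186 and 209 CPM outside (log2 difference -2.77 ± 0.15, adjusted p = 1.1e-59). Pcdh18 had 4 UMIs inside (log2 difference -2.84), a call lost on thinning, and Cdh24 had none, at least 2.74-fold lower than outside.

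F-RGCs (Foxp2, 3009 nuclei) had 7 higher and 10 lower (4.58% and 7.42% of all genes). Cdh9 was 9.69, 15.9 and 23.7 CPM inside and 2.099, 3.203 and 4.09 CPM outside (log2 difference 2.37 ± 0.14, adjusted p = 2.1e-18). Pcdh20 was 8.14, 15.2 and 23.7 CPM inside and 2.07, 2.78 and 6.36 CPM outside (log2 difference 2.29 ± 0.12, adjusted p = 8.7e-20). Both low-level genes were thus higher in this gate in all 8 libraries, together with Pcdh10 (log2 difference 0.99 ± 0.03) and Pcdh7 (log2 difference 0.61 ± 0.02). Cdh6, Cdh18 and Pcdh9 were lower without overlap. Cdh6 was 4.22, 9.02 and 24.6 CPM inside and 97.8, 117 and 139.9 CPM outside (log2 difference -3.36 ± 0.11, adjusted p = 1.0e-26). Cdh18 was 121, 144 and 210.3 CPM inside and 1042, 1115 and 1215 CPM outside (log2 difference -2.89 ± 0.04, adjusted p = 2.4e-40). Pcdh9 was 856, 1015 and 1485 CPM inside and 5216, 5480.4 and 6122 CPM outside (log2 difference -2.39 ± 0.04, adjusted p = 1.6e-36).

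T-RGCs (Tbr1, 607 nuclei) had the fewest called members of the 7 gates, with 4 higher and 5 lower (1.97% and 3.1% of all genes). This gate needed only 1 UMI of Tbr1, the lowest threshold of the 7, so its counts do not rank T-RGCs against the other types. Cdh12 was 293, 418 and 610.2 CPM inside and 217, 243 and 272 CPM outside (log2 difference 0.90 ± 0.07, adjusted p = 2.2e-15). Cdh6 was 6.097, 44.7 and 69.2 CPM inside and 86.9, 107 and 128 CPM outside (log2 difference -1.37 ± 0.15, adjusted p = 2.8e-10). Pcdh17 was 26.7, 44.6 and 67.4 CPM inside and 76.1, 83.8 and 103 CPM outside (log2 difference -0.99 ± 0.09, adjusted p = 5.6e-12), and Pcdh8 16.8, 24.2 and 27.7 CPM inside and 29.98, 37.3 and 50.6 CPM outside (log2 difference -0.73 ± 0.12, adjusted p = 6.3e-06). Pcdh18 was higher in 8 of 8 libraries, 12.2, 18.5 and 36.8 CPM inside and 8.81, 12.1 and 16.4 CPM outside (log2 difference 0.70 ± 0.15, adjusted p = 9.4e-04), but with a stricter gate it was at -0.09, and Cdh20 turned from 0.66 to -0.63.

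The gate of Chrm2 and Ppp1r1c (528 nuclei) had 2 higher and 14 lower (4.09% and 7.57% of all genes). Pcdh7 (log2 difference 1.98 ± 0.03) and Cdh4 (log2 difference 1.05 ± 0.04) were the 2 higher. Cdh8 was 0, 2.43 and 15.3 CPM inside and 78.2, 91.8 and 107 CPM outside (log2 difference -4.48). Cdh13 was 5.48, 8.65 and 29.4 CPM inside and 148, 177 and 192 CPM outside (log2 difference -4.10 ± 0.13, adjusted p = 9.8e-35). Pcdh15 was likewise lower in all 8 libraries, 2.93, 20.6 and 33.3 CPM inside and 183, 198 and 219 CPM outside (log2 difference -3.41 ± 0.12, adjusted p = 5.2e-32). Cdh9 and Pcdh20 had 2 UMIs each inside, 14.6-fold (interval 4.03 to 121) and 14.2-fold (3.91 to 117) below other RGCs.

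The Zic1 gate (220 nuclei) had 3 higher and 17 lower (2.44% and 6.89% of all genes), and 10 of the 11 type II cadherins tested were among those lower. Pcdh17 (log2 difference 2.28 ± 0.08), Cdh13 (log2 difference 0.81 ± 0.08) and Pcdh7 (log2 difference 0.76 ± 0.05) were the 3 higher. Pcdh19 was 0, 0 and 23.4 CPM inside and 60.9, 68.9 and 76.4 CPM outside (log2 difference -4.00). Cdh11 was 0, 14.7 and 62.5 CPM inside and 197, 206 and 225 CPM outside (log2 difference -3.85). These low members came with few UMIs inside the gate, 8 for Pcdh19 and 27 for Cdh11. Cdh12 was 0, 13.1 and 90.96 CPM inside and 223, 253 and 280.3 CPM outside (log2 difference -3.42), and Cdh8 0, 7.44 and 20.1 CPM inside and 76.1, 90.1 and 105 CPM outside (log2 difference -3.42). Cdh9 had 0 UMIs inside, at least 3.04-fold lower than outside.

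**Figure D3:**
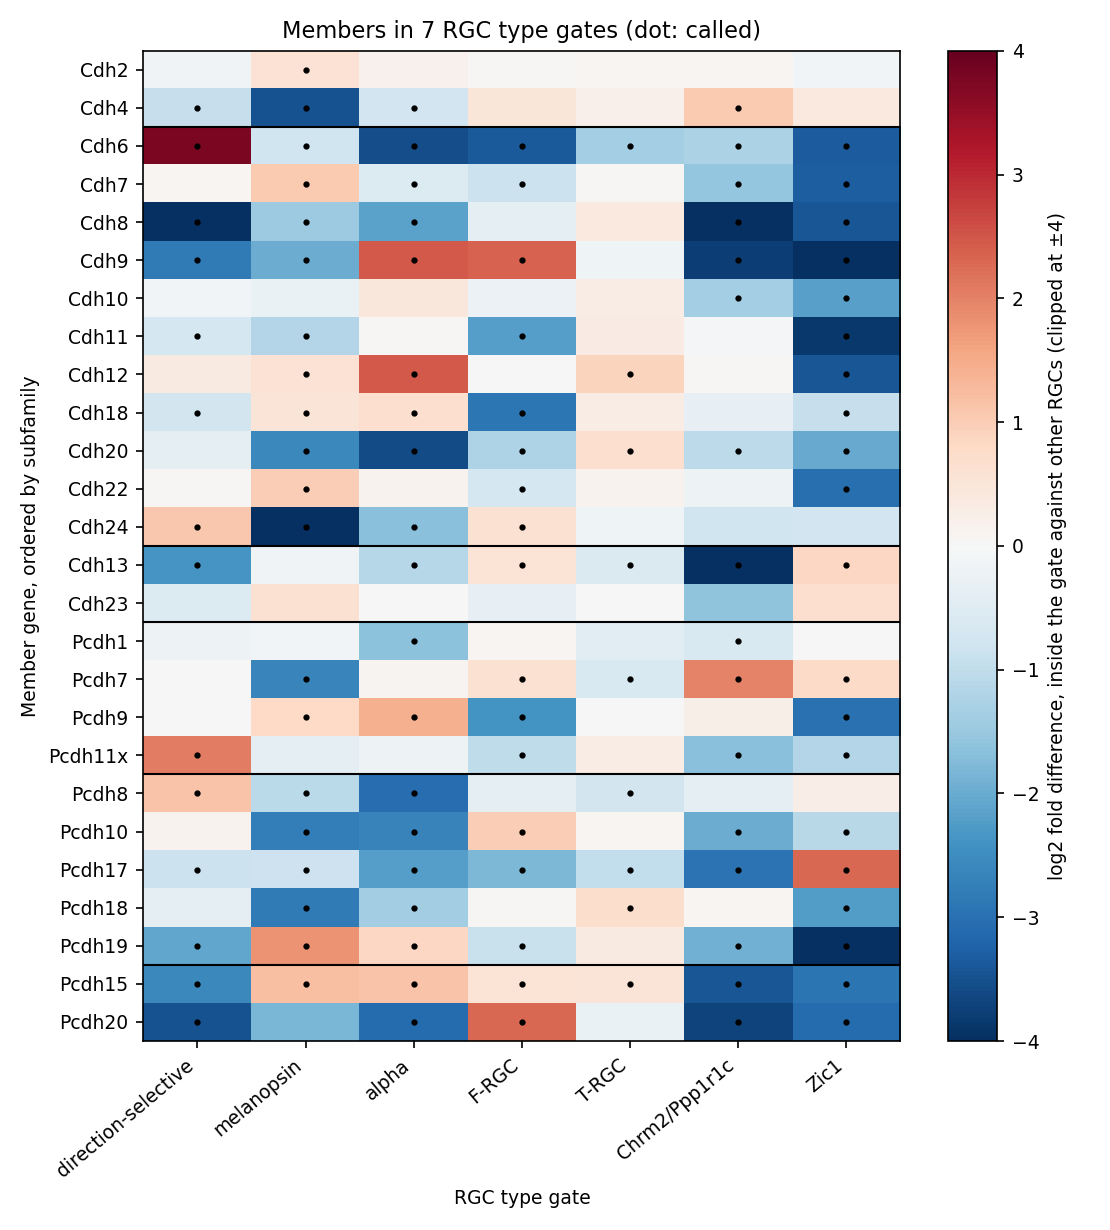
Log2 difference of each tested member (rows, by subfamily) inside each of the 7 RGC type gates (columns) against all other RGCs, clipped at 4 in either direction, red higher and blue lower; a dot marks a called member and grey no test. Cdh6 is red in the direction-selective gate and blue or pale in the others, and the Zic1 column is blue for nearly all type II cadherins.

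Subsets of the other classes were gated in the same way, and in these smaller gates 3 of 13 higher calls (all in cones) and 37 of 47 lower ones passed the filter only through the side where the member was high. Bipolar cells pass photoreceptor signals to the inner retina along ON and OFF channels. OFF cone bipolar nuclei (Grik1 and Vsx1, 269 nuclei) had 4 of 14 tested members higher and 5 lower than ON cone bipolar nuclei (434), where 10.9% and 11.4% of all genes were. Cdh9 and Cdh8 went opposite ways. Cdh9 was 22.0022, 65.2 and 111 CPM in OFF and 925, 1068 and 1209 CPM in ON cone bipolar nuclei (log2 difference -3.79). Cdh8 was 1988, 2909 and 4285 CPM in OFF and 342, 451 and 697 CPM in ON nuclei (log2 difference 2.78 ± 0.15, adjusted p = 2.6e-12). The 2 channels did not overlap in either gene, and after thinning 56.2% (unthinned 56.5%) of ON and 7.39% (unthinned 12.3%) of OFF nuclei held Cdh9, against 22.7% (unthinned 24.2%) and 57.4% (unthinned 58.7%) for Cdh8. As background, none of 1032 thinned Müller nuclei held Cdh9, which allows a share of up to 0.291%. Without thinning 0.209% of Müller nuclei held Cdh9, and 0.969% (unthinned 1.12%) held Cdh8.

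Pcdh11x was 0, 8.93 and 220.0 CPM in OFF and 18.3, 193 and 402 CPM in ON nuclei (log2 difference -2.95). Cdh4 was 24.5, 43.2 and 143 CPM in OFF and 108, 137 and 221 CPM in ON nuclei (log2 difference -1.17), and Cdh20 50.9, 116 and 269.7 and 161, 252 and 385 CPM (log2 difference -1.06). For these 3 the ranges overlapped, although OFF was lower within each of the 8 libraries. Rod bipolar nuclei (571), which carry the rod signal, had none of 12 members higher and 10 lower than ON cone bipolar nuclei (14.4% and 15.7% of all genes). Cdh9 was 0, 6.51 and 43.4 CPM in rod bipolar nuclei (log2 difference -6.38), and Cdh20 0, 1.97 and 15.8 CPM (log2 difference -5.55). The same held for Pcdh9 at 82.97, 263 and 1045 against 7032, 8344 and 9762 CPM (log2 difference -4.49 ± 0.24, adjusted p = 2.7e-15), for Pcdh7 at 0, 31.1 and 62.5 against 535, 597 and 955 CPM (log2 difference -4.15) and for Cdh8 at 0, 3.98 and 106 CPM (log2 difference -4.10).

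Starburst amacrine cells, the cholinergic cells of the direction circuit (Chat, Slc5a7 and Slc18a3; 137 nuclei, 7 libraries since cKO 11 had 6), had 4 of 21 members higher and 13 lower than other GABAergic amacrine cells (10.7% and 13.5% of all genes). Cdh6 was 492, 631 and 981 CPM in starburst and 54.97, 67.2 and 81.3 CPM in other GABAergic nuclei (log2 difference 3.27 ± 0.13, adjusted p = 1.4e-16), higher in 7 of 7 libraries, and 74.5% (unthinned 89.8%) of thinned starburst nuclei held it. Pcdh10 (log2 difference 2.54 ± 0.15), Cdh18 (log2 difference 1.49 ± 0.13) and Pcdh7 (log2 difference 1.08 ± 0.11) were also higher. So Cdh6 was higher both in this gate and in the direction-selective RGC gate. In these 7 libraries Cdh20 had 1 UMI in starburst nuclei against 456, 513 and 629 CPM, 440-fold lower with an interval of 78.9 to 17384. Pcdh11x had 2, 42.2-fold lower with an interval of 11.7 to 349, and Cdh7 had 6 against 139, 156 and 182 CPM (log2 difference -4.43). Cdh10 was 0, 11.6 and 21.8 CPM in starburst and 59.3, 85.1 and 111 CPM in other nuclei (log2 difference -3.11).

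Glycinergic amacrine nuclei (Slc6a9, 159 nuclei) had none of 20 members higher and 17 lower than GABAergic ones (10.7% and 15.3% of all genes). Pcdh9 was 58.6, 183 and 687 CPM against 2747, 3196 and 4036 CPM (log2 difference -3.79 ± 0.24, adjusted p = 6.0e-15). Cdh20 was 0, 30.9 and 171 CPM against 456, 518 and 629 CPM (log2 difference -3.33). Cdh8 (log2 difference -3.06), Pcdh11x (log2 difference -2.99) and Cdh10 (log2 difference -2.22) followed with 8, 9 and 13 UMIs in the gate, and no glycinergic range reached the GABAergic one. Cones against rods had 5 of 8 members higher and 2 lower (18.2% and 18.9% of all genes). Cdh18 (log2 difference 6.09) and Pcdh15 (log2 difference 2.58 ± 0.06, adjusted p = 4.8e-22) led in cones, with Cdh2 (log2 difference 1.71 ± 0.15, adjusted p = 2.8e-10) and Cdh20 (log2 difference 1.36), while Pcdh7 was 16.97, 49.1 and 73.1 CPM in cones and 57.6, 150.3 and 317 CPM in rods (log2 difference -1.74). Pcdh7 in rods was below its 409 to 583 CPM in empty droplets.

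**Figure D4:**
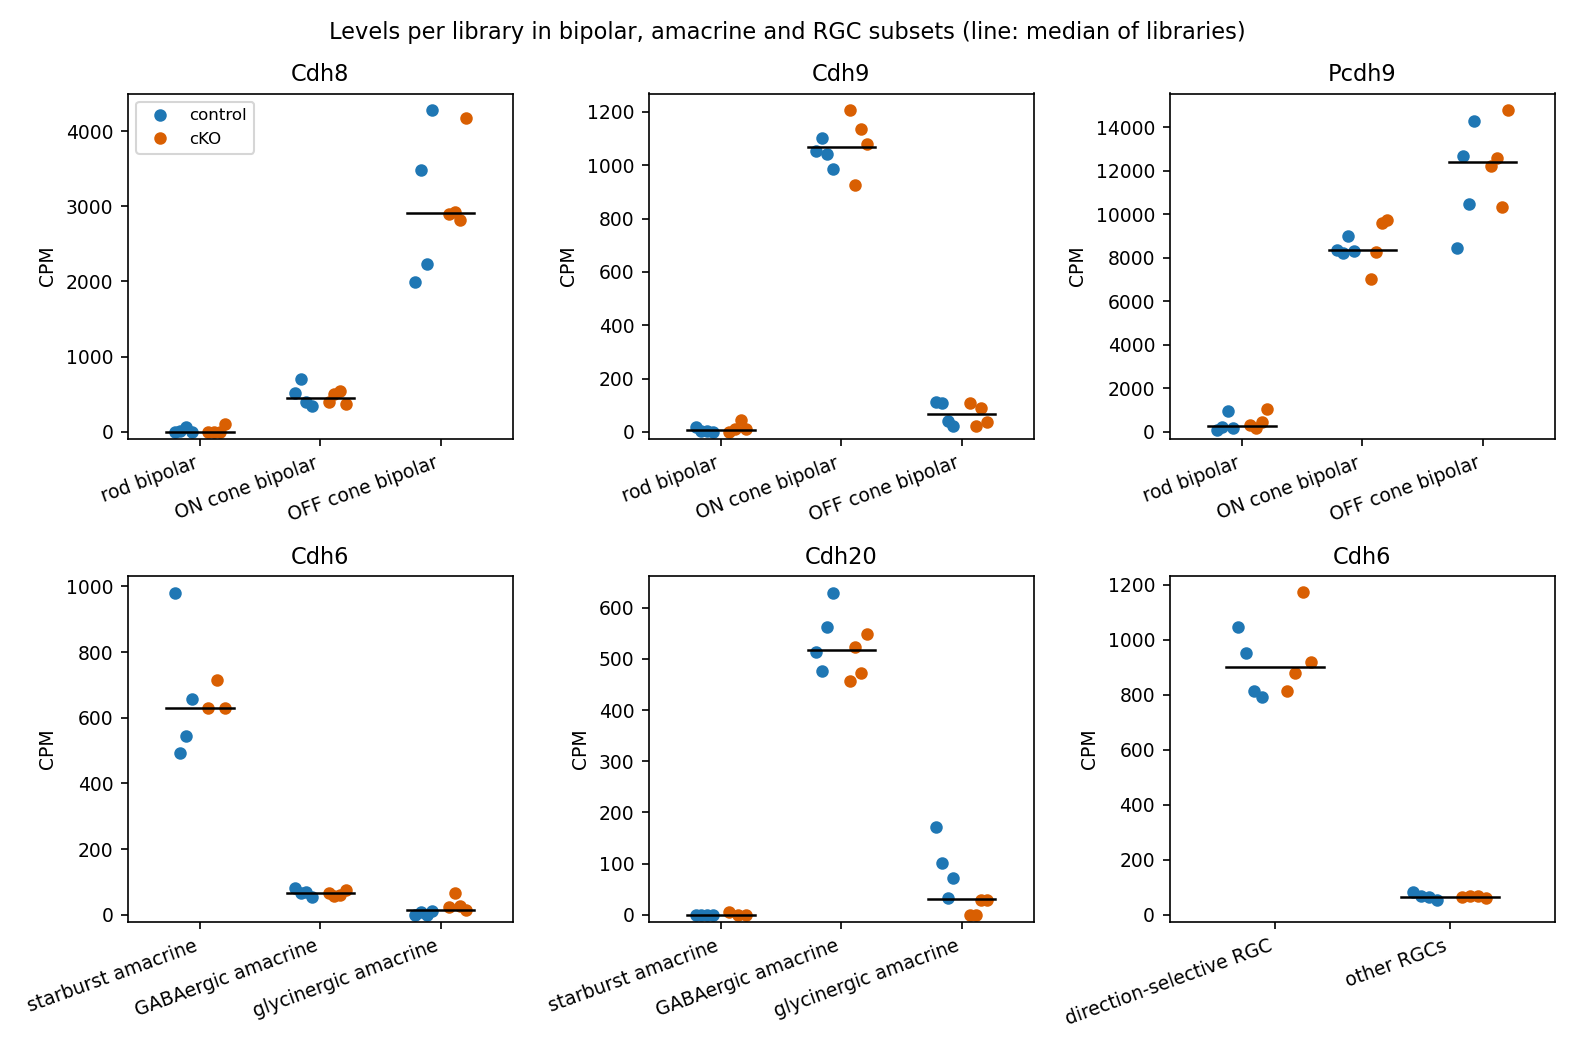
CPM per library (points, blue control and orange cKO; line, median) of Cdh8, Cdh9 and Pcdh9 in bipolar subsets and of Cdh6 and Cdh20 in amacrine subsets, with Cdh6 also in RGCs. Cdh9 is high in ON and Cdh8 in OFF cone bipolar nuclei, and Cdh6 is high in starburst and in direction-selective nuclei.

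The genotype comparison set cKO against control libraries in 20 gates, the 7 classes, the 7 RGC types and 6 subsets. In horizontal cells the only control library was control 1, set against cKO 10 and 11, so its spread is assumed to be that of the cKO libraries. The comparison comprised 308 tests of 29 members, and edgeR called none of them. Of 143407 gene tests 8 were called, between 0% and 0.101% of the genes of a gate (0.101% in OFF cone bipolar nuclei, 0.0183% in GABAergic nuclei, 0.018% in horizontal cells, 0.0127% in Müller glia, 0.0114% in the Chrm2 and Ppp1r1c gate, 0.00812% in amacrine cells and 0% in the other 14 gates). An unadjusted p under 0.05 was reached by 25 member tests, 8.12%, against 3.98% of all gene tests, with 137 member values higher and 171 lower in cKO. Without the horizontal gate these were 25 of 300 member tests and 7 called of 137841 gene tests. DESeq2 called 1 member test and the fit without a filter 2. The shares of all genes called under those settings are not given here, so these counts are not read as a result. Gates nest in one another and share the 8 libraries, so these tests are not independent, and fewer cells of a type cannot be told apart from less RNA per cell where a gate mixes types. None of the listed partner genes was called either.

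Pcdh7 was the member with the most low p-values, lower in cKO in 15 of 18 tests and under an unadjusted p of 0.05 in 6. In Müller glia its control libraries 1 to 4 were at 232, 184, 284 and 126 CPM and cKO libraries 10 to 13 at 97.4, 126, 103 and 119.7 CPM, groups that nearly met at control 4 and cKO 11. The log2 difference was -0.99 ± 0.20, unadjusted p = 4.2e-05, with an adjusted p of 0.0671. It was called without a filter (log2 difference -1.01), by DESeq2 (log2 difference -0.97), without control 4 (-1.13, adjusted p = 0.0120) and without cKO 13 (-1.06, adjusted p = 0.0380). It was not called with the stricter gate (-0.62), with order-of-magnitude nuclei (-0.68) or after thinning to 2000 UMIs (-0.69, adjusted p = 0.418). Nor was it called without control 3 (-0.78, adjusted p = 0.503), without cKO 12 (-0.97, adjusted p = 0.264) or under any remaining setting. Summed RGC markers in the Müller gate were 196 to 347 CPM in control and 279 to 367 CPM in cKO libraries. Summed astrocyte markers there were 206, 209, 224 and 115 CPM in control libraries 1 to 4 and 143, 104, 152 and 137 CPM in cKO libraries 10 to 13, so 3 of 4 control libraries were above all cKO libraries in that list as well. In empty droplets Pcdh7 was at 502 CPM, above every Müller library. The part of free RNA or of either list in the result was not tested.

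In RGCs Pcdh7 was 2120.1, 1994, 2024 and 2104 CPM in control and 1936, 1926, 1976 and 1889 CPM in cKO libraries, -0.16 ± 0.06, unadjusted p = 0.0158. In alpha RGCs it was 2021, 1988, 2380.0 and 3043 CPM against 1659, 1817, 1984 and 2195 CPM, -0.35 ± 0.13, unadjusted p = 0.0162. F-RGCs had 3170.0, 2723, 2850.0 and 2812 CPM against 2595, 2546, 2827 and 2806 CPM, -0.16 ± 0.07, unadjusted p = 0.0416. The cKO groups were the lower in each, without overlap only in RGCs among these 3. Bipolar cells had 395, 446, 517 and 640.4 CPM against 482, 339, 395 and 346 CPM, -0.36 ± 0.15, unadjusted p = 0.0282. The melanopsin gate went the other way, 346, 182 and 193 CPM in control 2 to 4 and 396, 365, 461 and 505 CPM in cKO, 0.82 ± 0.21, unadjusted p = 7.3e-04 with an adjusted p of 0.476, and with the stricter gate it was -0.16. The difference between gates was not tested.

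In 7 other gates Pcdh7 was among the 3 members of lowest p without reaching an unadjusted p of 0.05. Its log2 difference was -0.36 ± 0.18 in ON and -0.35 ± 0.23 in OFF cone bipolar nuclei, -0.21 ± 0.12 in T-RGCs and -0.11 ± 0.08 in Zic1 RGCs, with overlapping groups in each. It was -0.11 ± 0.15 in starburst nuclei and, with the sign turned, 1.00 ± 0.54 in glycinergic nuclei, where the 4 controls ran from 11.9 to 379.9 CPM. Horizontal cells had 65.7 CPM in control 1 and 55.1 and 229 CPM in cKO 10 and cKO 11, with no second control library.

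Among the other δ-protocadherins, Pcdh10 in alpha RGCs was 18.99, 25.0013, 16.3 and 12.4 CPM in control and 46.5, 34.4, 39.98 and 39.9 CPM in cKO libraries, higher in cKO without overlap (log2 difference 1.02 ± 0.24, unadjusted p = 4.4e-04, adjusted p = 1.0). Pcdh1 was higher without overlap in amacrine cells, 26.8, 24.5, 25.9 and 22.5 against 27.97, 33.9, 28.5 and 38.9 CPM (log2 difference 0.35 ± 0.16, unadjusted p = 0.0462), and in F-RGCs, 24.5, 30.3, 25.6 and 27.8 against 34.5, 40.2, 38.7 and 36.5 CPM (log2 difference 0.39 ± 0.12, unadjusted p = 0.0053). In GABAergic nuclei Pcdh1 was 27.5, 25.6, 22.3 and 19.4 against 33.2, 33.1, 22.3 and 43.7 CPM (log2 difference 0.49 ± 0.22, unadjusted p = 0.0339). Empty droplets held Pcdh10 at 342 CPM and Pcdh1 at 61.0 CPM, above every library given here for them. The part of free RNA in these differences was not tested. Pcdh11x was 78.4, 96.2, 70.4 and 116 against 62.7, 124, 10.51 and 36.2 CPM in bipolar cells (log2 difference -0.85 ± 0.37, unadjusted p = 0.0337), called without a filter (-0.88, adjusted p = 0.0315), and 183, 268, 203 and 402 against 182, 357, 18.3 and 123 CPM in ON cone bipolar nuclei (log2 difference -0.90 ± 0.41, unadjusted p = 0.0379). In both cKO 12 was the lowest library. Without cKO 12 the difference in bipolar cells was -0.43, by DESeq2 it was -0.70 and with the stricter gate -0.42, none of them called. Pcdh9 was 6276, 5494, 6269 and 6803 against 5872, 3972, 4805 and 6057 CPM in the Chrm2 and Ppp1r1c gate (log2 difference -0.32 ± 0.10, unadjusted p = 0.00367).

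In direction-selective RGCs Pcdh8 was 73.5, 74.8, 51.2 and 60.1 CPM in control and 69.7, 128, 89.6 and 93.2 CPM in cKO (log2 difference 0.48 ± 0.17, unadjusted p = 0.0122), and Pcdh19 8.97, 16.1, 7.75 and 12.6 against 18.7, 23.9, 15.8 and 26.8 CPM (log2 difference 0.75 ± 0.31, unadjusted p = 0.0241). Pcdh19 in GABAergic nuclei was 178, 179, 128 and 170.3 against 137, 149.7, 128 and 145 CPM (log2 difference -0.26 ± 0.12, unadjusted p = 0.0428). These pairs of groups overlapped. Empty droplets held Pcdh8 at 161 CPM and Pcdh19 at 82.0 CPM, above every direction-selective library given here, and the part of free RNA was not tested.

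Among the cadherins, Cdh12 in cones was 292, 173, 216 and 219 CPM in control and 68.3, 33.9, 70.2 and 209 CPM in cKO libraries (log2 difference -1.14 ± 0.33, unadjusted p = 0.00161). In cKO 13 it lay among the controls, and without that library the difference was -1.86 and called (adjusted p = 0.00377). Cdh12 in cones was not called with any other library left out, and the stricter gate gave -0.67, also not called. Its difference was also negative in rods, 175, 82.99, 99.02 and 147 against 35.4, 82.3, 56.6 and 127 CPM (log2 difference -0.82 ± 0.35, unadjusted p = 0.0325), in amacrine cells, 792, 691, 849 and 915 against 761, 726, 702 and 687 CPM (log2 difference -0.22 ± 0.09, unadjusted p = 0.0306), and in the Chrm2 and Ppp1r1c gate, 289, 241, 262 and 298 against 195, 187, 239 and 262 CPM (log2 difference -0.35 ± 0.12, unadjusted p = 0.00785). All 4 overlapped, and none was called with all libraries. Cdh7 was 66.9, 23.5, 38.4 and 32.9 against 8.85, 2.43, 28.2 and 29.5 CPM in the Chrm2 and Ppp1r1c gate (log2 difference -1.04 ± 0.38, unadjusted p = 0.0107) and 64.4, 98.5, 78.8 and 128 against 73.2, 70.3, 64.5 and 90.9 CPM in T-RGCs (log2 difference -0.39 ± 0.19, unadjusted p = 0.0467). Cdh20 was 469, 454, 513 and 536 against 364, 471, 410.3 and 473 CPM in amacrine cells (log2 difference -0.24 ± 0.10, unadjusted p = 0.0294). Cdh6 was 35.5, 48.1 and 18.3 CPM in control 2 to 4 and 83.2, 5.98, 104 and 124 CPM in cKO melanopsin RGCs (log2 difference 1.26 ± 0.44, unadjusted p = 0.00919).

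Pcdh15 in OFF cone bipolar nuclei was 1699, 1169, 1961 and 1575 CPM in control and 1061, 1122, 1159.7 and 846 CPM in cKO libraries, lower without overlap (log2 difference -0.61 ± 0.19, unadjusted p = 0.00469, adjusted p = 0.415). Its log2 difference was -0.13 ± 0.11 in cones, -0.21 ± 0.10 in all bipolar cells, -0.28 ± 0.20 in rod bipolar nuclei and 0.74 ± 0.61 in starburst nuclei, at unadjusted p from 0.0620 to 0.243 and with groups that overlapped.

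Of the 60 members of lowest p, 3 in each gate, 25 were under an unadjusted p of 0.05 and are given above, and 35 were at 0.0535 or more with adjusted p of at least 0.919. The log2 differences of these 35 lay between -0.78 and 1.00, 20 of them lower and 15 higher in cKO, and in the 32 with at least 2 libraries a group the groups overlapped. Among them were Cdh19 in Müller glia (log2 difference -0.77 ± 0.39), where cKO 12 held 4.91 CPM and the other libraries 20.98 to 61.97 CPM, Cdh4 in alpha RGCs (log2 difference -0.52 ± 0.26), Cdh10 in ON cone bipolar nuclei (log2 difference -0.52 ± 0.29), Cdh20 in OFF cone bipolar nuclei (log2 difference 0.79 ± 0.39), Pcdh8 in RGCs (log2 difference 0.21 ± 0.12) and Pcdh17 in melanopsin RGCs (log2 difference -0.78 ± 0.42).

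Control and cKO libraries did not overlap for 1 of 28 members in RGCs (Pcdh7, where 3.69% of all genes did not overlap), 1 of 24 in amacrine cells (Pcdh1, 3%), 1 of 14 in Müller glia (Pcdh7, 2.84%), 1 of 19 in alpha RGCs (Pcdh10, 3.05%), 1 of 25 in F-RGCs (Pcdh1, 3.04%) and 1 of 10 in OFF cone bipolar nuclei (Pcdh15, 3.85%). In the other 11 gates with 4 libraries a group none did. These shares are near those of all genes.

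**Figure D5:**
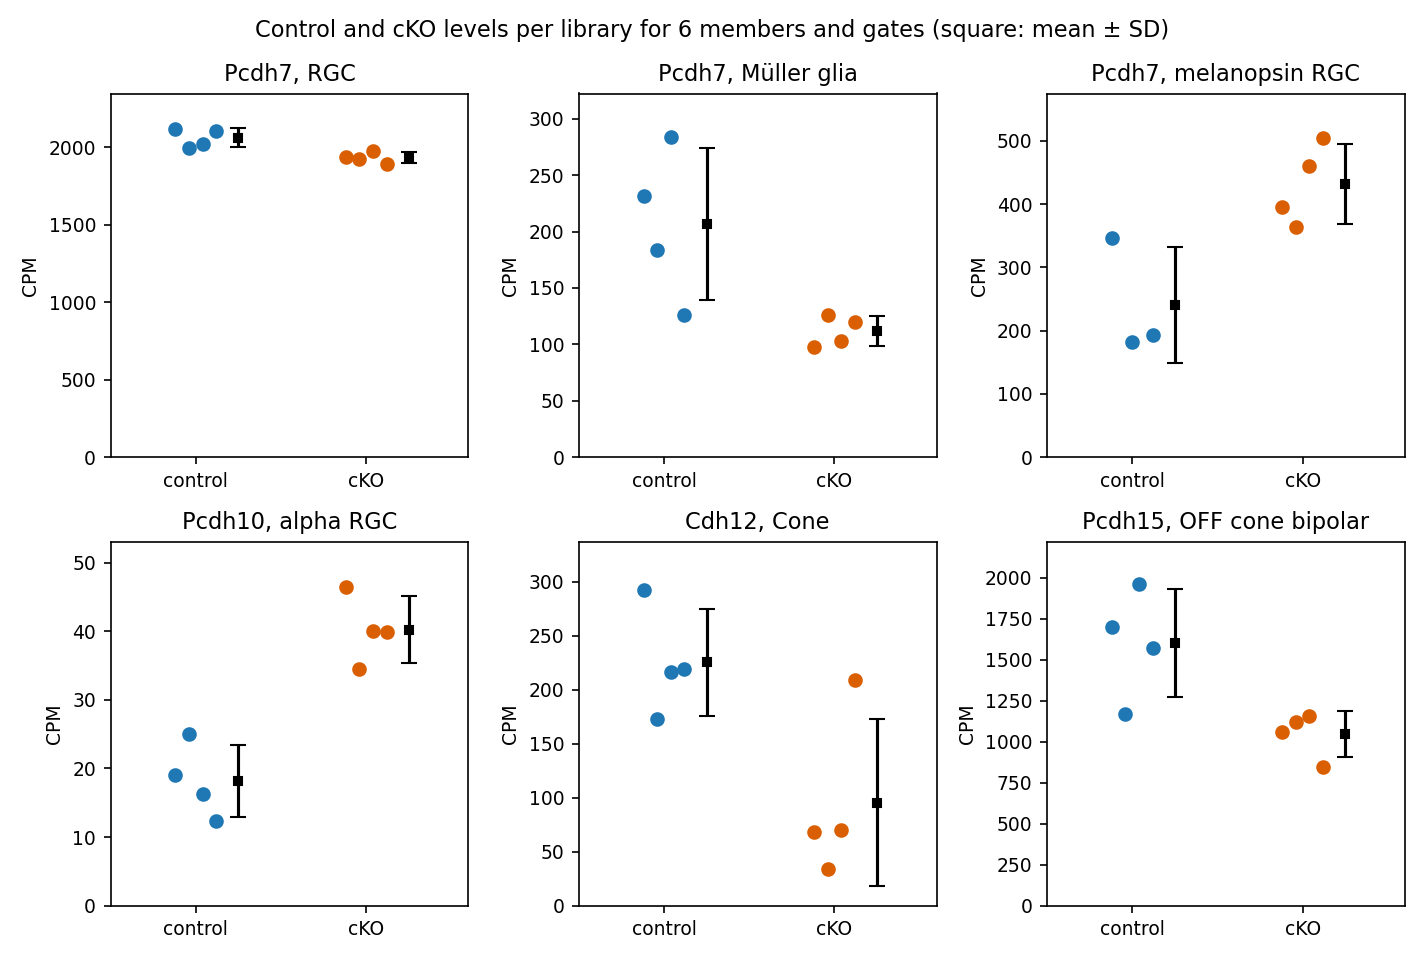
CPM per library in 6 panels (Pcdh7 in RGCs, Müller glia and melanopsin RGCs, Pcdh10 in alpha RGCs, Cdh12 in cones, Pcdh15 in OFF cone bipolar nuclei) in control (blue) and cKO (orange); squares are mean ± SD. None was called in the filtered edgeR fit of all libraries, whereas Pcdh7 in Müller glia was called by DESeq2 and without the filter. For Cdh12 in cones 1 cKO library lies among the controls.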

How the data were processed

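Nuclei from 8 libraries were profiled with the 10x Chromium 3′ v3.1 kit. The deposited files hold unnormalised UMI counts of every gene in every barcode, which the authors made with Cell Ranger 7.0.0 on GRCm39 according to the submitters' processing notes; whether intronic reads were counted is not given in the sources used here. The study's later removal of free RNA was not part of these counts, and free RNA is given from the barcodes ranked 45000 to 90000 by UMIs. Kept nuclei held 20366974 to 37171367 UMIs a library. Here 45918 of 12695972 barcodes were called as nuclei, by an order-of-magnitude threshold and a test against free RNA; 9606 fell to filters (under 200 genes, over 5% mitochondrial UMIs, or outlying totals) and 1377 to the scrublet doublet score of scanpy 1.11.5.

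Gates required UMIs of 3 to 5 markers of a class (3 for RGC, amacrine, bipolar and horizontal cells, 4 for cones and Müller glia, 5 for rods); their thresholds were set after marker counts were seen, with no member used. RGC type gates required UMIs of the genes named with each, in nuclei of the RGC gate; Il1rapl2 and Jam2, listed for alpha and T-RGCs, were not used. Their thresholds differed. At least 1 UMI of Tbr1, 2 of Zic1, or 3 of Foxp2, of Spp1 or of Opn4 and Eomes summed was needed. The other gates needed 5 UMIs of Cartpt with 1 of Col25a1, and 2 of Chrm2 with 1 of Ppp1r1c. 1 RGC type gate and 1 partner gene are not reported here. Counts summed per library and gate (over 10 nuclei and 1000 UMIs) were tested with edgeR 4.0.16 (TMM, filterByExpr, quasi-likelihood F test, two-sided) in R 4.3.3, with Benjamini-Hochberg adjustment over all genes tested. Class, RGC type and subset fits had the library as a term, and the genotype fit had none, as in the study's pseudobulk design. DESeq2 1.42.0 was an alternative. Fits were checked on simulated counts. Values are log2 differences ± SE. Intervals and floors of 3 UMIs cover counting error only. In the genotype fit p-values rest on the spread between pooled libraries. In the other fits they rest on how far the difference between gates varied from library to library. Estimates of spread are shared between genes, so p-values are not compared between gates.

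In each class, RGC type and subset comparison the up to 5 called members with the largest log2 difference and at least 20 UMIs were described, and in each genotype comparison the 3 with the smallest p; other members were added for their roles. The members and lists were chosen with earlier results of these data known.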

Additional observations from a re-analysis of the deposited data

Results flagged for a closer look

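In groups of 4 libraries, 25 of 250 member and gate levels (10%) had 1 library far from the other 3, by Dixon's test at its 95% critical value. Its rate of about 1 in 20 groups holds for normally distributed values. A group in which only 1 library holds a UMI is always flagged. The levels tested were also picked for large differences or low p, so the 10% is not read as an excess. Most are low counts or small gates.

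Among abundant members, Cdh8 was 4168 CPM in cKO 13 OFF cone bipolar nuclei (others 2814 to 2926), Cdh12 917.1 CPM in cKO 13 bipolar cells (702.2 to 724.5), and Cdh18 1332 CPM in cKO 11 bipolar cells (1864 to 1953). Pcdh15 was 21960 CPM in control 4 cones (18710 to 19090) and 890.1 CPM in control 2 bipolar cells (1019 to 1038). Pcdh9 was 1485 CPM in cKO 11 F-RGCs (1005 to 1025), 687.2 CPM in cKO 12 glycinergic nuclei (58.59 to 149.9) and 973.8 CPM in control 3 rod bipolar nuclei (82.97 to 220.7). Pcdh10 was 214.5 CPM in control 1 T-RGCs (167.2 to 174.5) and Pcdh19 127.5 CPM in control 3 GABAergic nuclei (170.3 to 178.7).

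In small gates, Cdh4 was 143.2 CPM in control 4 OFF cone bipolar nuclei (27.04 to 42.45), Cdh20 269.7 CPM in cKO 13 (109.9 to 132) and Pcdh11x 220 CPM in cKO 11 of the same gate (0 to 23.07). Rod bipolar nuclei had Cdh8 at 63.08 CPM in control 3 (0 to 8.33) and 106.3 CPM in cKO 13 (0 to 4.004), and Pcdh7 at 62.47 CPM in control 2 (27.72 to 31.54). The Chrm2 and Ppp1r1c gate had Cdh13 at 29.43 CPM in control 1 (5.482 to 9.086) and Cdh8 at 15.26 CPM in cKO 12 (0 to 1.475). With the other libraries of the group all at 0, control 4 cones held Cdh10 at 15.66 CPM, control 3 starburst nuclei Cdh7 at 7.442 CPM, control 4 glycinergic nuclei Cdh8 at 23.9 CPM, control 1 glycinergic nuclei Pcdh11x at 18.99 CPM, control 4 direction-selective RGCs Cdh9 at 1.397 CPM, cKO 13 melanopsin RGCs Pcdh18 at 2.953 CPM, and cKO 12 direction-selective RGCs Pcdh20 at 0.8783 CPM.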

How the results depend on the processing

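No paired analysis was possible because control and cKO libraries share no replicate number in the labels. With no replicate block, that is no library term, 117 class, 114 RGC type and 60 subset members were called, against 116, 115 and 60 of 182, 182 and 75 tested with it. Class calls stayed within 101 (nuclei thinned to 2000 UMIs) and 131 (no filter), RGC type calls within 93 (thinned) and 117 (no filter), counts over different sets of tested members. Thinning kept 96 of the 112 class calls and 87 of the 103 RGC type calls still tested. Without a filter 116 of the 116 class calls and 113 of the 115 RGC type calls were kept. Leaving out 1 library gave 105 to 116, 110 to 116 and 58 to 62. With stricter gates 26 subset members were called of only 30 tested, 24 of them among the main calls. The genotype comparison, 0 called, gave 2 without a filter, 1 by DESeq2 and 0 to 2 with 1 library left out. These counts come without the share of all genes called and are not read as a result.

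Directions turned for Cdh12 in cones against rods (-0.68) and Pcdh7 in rods (0.53) with order-of-magnitude nuclei, for Cdh20 (-0.63) and Pcdh18 (-0.0898) in T-RGCs with the stricter gate, and for Pcdh15 in amacrine cells (-1.02 to 0.42 over the libraries left out) and Müller glia (-1.32 to 0.14) without control 1, where the horizontal class had no Pcdh15 UMI left. The cause of these turns was not tested. With control libraries only, 102 of the 116 class calls and 103 of the 115 RGC type calls were also made. Horizontal cells rest on 3 libraries and rods had a median of at most 1365 UMIs, which limits precision there. Calls were also lost under some settings for Cdh9 in cones and Zic1 RGCs, Cdh24 and Pcdh18 in melanopsin RGCs, Pcdh8 in T-RGCs and Cdh20 in cones against rods, among others, and the cause of these losses was not tested.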

Other observations

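Nuclei that met no gate or several gates belong to no comparison. The 4637 nuclei with no gate had a median of 1015 to 4225 UMIs a library and the 2527 with several gates 6434 to 12985. Cdh9, highest in bipolar cells among single-class nuclei, was 19.2 to 43.1 CPM (median 30.3) with no gate and 7.18 to 29.0 CPM (median 17.7) with several. Pcdh15 was 388 to 519 CPM (median 459) with no gate and 435 to 747 CPM (median 494) with several, levels between those of RGCs and cones. Cdh2 was 249.9 to 393 CPM (median 342) and 362 to 412 CPM (median 396), and Pcdh8 9.84 to 37.4 CPM (median 26.9) and 22.7 to 38.6 CPM (median 25.04).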
